A study of Arabidopsis thaliana with 6 samples.

Results

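Isocitrate lyase (ICL, AT3G21720) was measured on 6 ATH1 arrays by a single probe set. It was the only 1 of 22810 probe sets on the array that the platform annotation assigned to this gene alone, and 0 others named ICL together with further genes. In all, 13513 probe sets named 1 gene. The gene was chosen with its values on these arrays known, so its own levels and differences are a description and carry no test. RNA came from entire Arabidopsis thaliana seedlings with opened cotyledons and no true leaves. They had spent 3 days in the dark and 3 days under constant white light, at 23 °C and on 1.5% sucrose. There were 3 groups of 2 arrays. Wild type Col-0 was grown without herbicide or with 5 µM norflurazon, and a gun1,gun5 double mutant was grown with 5 µM norflurazon only. Norflurazon blocks carotenoid synthesis and so bleaches chloroplasts in the light, and gun (genomes uncoupled) mutants keep nuclear photosynthesis genes expressed when plastids are damaged. Untreated gun1,gun5 seedlings were not analysed here, so that a difference between mutant and wild type does not show how the mutations change the response. GUN1 and GUN5 are not among the named genes and their signals were not analysed here. Nothing in the labels tells whether replicates were planted separately, so the spread between them may be technical.

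Isocitrate lyase splits isocitrate into succinate and glyoxylate. Together with malate synthase it forms the glyoxylate cycle, which bypasses the steps of the tricarboxylic acid cycle that release carbon dioxide. In seedlings of oil-storing plants such as Arabidopsis the enzyme works in peroxisomes, where acetyl-CoA from the breakdown of stored fat is turned into precursors of sugar. Its level normally declines as cotyledons turn green and the peroxisomes take up their part in photorespiration, and genes of the cycle are known to be repressed by sugars and raised in starved or senescing tissue.

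ICL signal was low in untreated wild type seedlings and high in both groups grown on norflurazon. In the untreated wild type the signal was 137.2 on replicate 1 and 153.8 on replicate 2, a mean of 145.5 ± 11.7 (SD, n = 2). In the wild type on norflurazon it was 2030.3 and 1670.5, a mean of 1850 ± 254 (SD, n = 2). In gun1,gun5 on norflurazon it was 1280.8 and 4466.2, a mean of 2874 ± 2252 (SD, n = 2). All 4 arrays of treated seedlings lay above both arrays of untreated ones, as was the case for 25.1% of the 13648 probe sets tested, and the smallest ratio between a treated mutant array and an untreated wild type array was 8.33. The 2 arrays of the mutant lay on either side of both wild type norflurazon arrays. By group means the order was untreated wild type, treated wild type, treated mutant. The first step of this order was larger than the spread between arrays and the second was not.

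**Figure D1:**
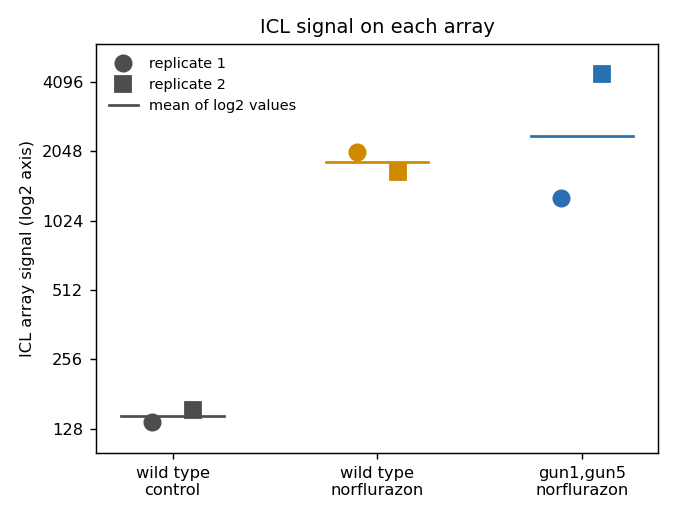
ICL signal (log2 axis) on each of the 6 arrays, by group; circles are replicate 1, squares replicate 2, and the bar is the mean of the 2 log2 values. The untreated arrays sit at 137.2 and 153.8, and the treated mutant arrays, at 1280.8 and 4466.2, enclose the treated wild type arrays.

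On norflurazon the wild type had a log2 difference of 3.66 ± 0.16 (SE from the 2 arrays of each group) over the untreated wild type, which is 12.7-fold. All log2 values are of signal plus a pseudocount of 0.05 unless stated. Over arrays of the same replicate number the ratio was 14.8 for replicate 1 and 10.9 for replicate 2. Treated arrays lay above untreated ones for 34.2% of tested probe sets in this comparison, and ICL had been picked with it in view. A larger difference was found for 15 of the 13648 tested probe sets, whose median difference was 0.06. Of the 7 named probe sets with a larger difference, 4 had treated arrays that differed widely, such as AT1G53540 with signals of 2739.2 and 18.6. The others were AT2G41730 at 5.66 (143.4 and 245.9 treated), AT2G19970 at 4.46 (227 and 156.7) and AT2G04050, which encodes a MATE efflux protein, at 4.23 (282.5 and 502.6). In untreated wild type these were dim, with signals of 2.1 and 6.4, 8.4 and 8.6, and 18 and 22.4. In bulk seedlings a higher ICL signal in each cell and a larger share of cells with ICL transcripts cannot be told apart.

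Treated mutant and untreated wild type differed by 4.04 ± 0.90 on the log2 scale (SE), or 16.5-fold, in a comparison that changes genotype and treatment together. The ratio was 9.33 over arrays numbered 1 and 29.0 over arrays numbered 2. Treated mutant arrays lay above untreated wild type arrays for 34.6% of tested probe sets. This difference and that of the treated wild type share the same 2 untreated arrays. A larger difference from the untreated wild type was found for 16 tested probe sets, 6 of them named.

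Between the 2 genotypes on norflurazon the log2 difference was 0.38 ± 0.91 (SE), or 1.30-fold, and its direction depended on the arrays taken. Over arrays numbered 1 the mutant had 0.631 times the wild type signal, and over arrays numbered 2 it had 2.67 times. Without mutant replicate 2 the difference was -0.52, and without mutant replicate 1 it was 1.28. Overlapping arrays were found for 59.2% of tested probe sets in this comparison, ICL among them, and 1799 had a higher mutant value relative to the wild type than ICL. Since the SE exceeds the difference, neither a lower nor a higher ICL level in the mutant could be read from these 4 arrays.

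**Figure D2:**
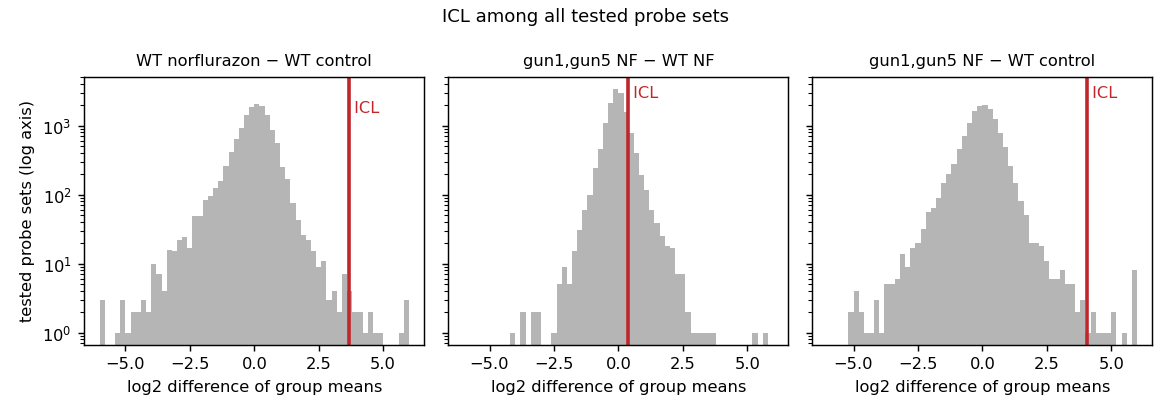
Histograms of the log2 difference of group means for the 13648 tested probe sets (count on a log axis; values beyond 6 in either direction are in the end bins) in the 3 comparisons, with ICL as a red line. ICL lies at 3.66 and 4.04 in the comparisons with untreated wild type, among the highest values, and at 0.38 between the genotypes.

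HPR and a pair of antenna protein genes were the named genes of the lists for photorespiration and green tissue. HPR, the peroxisomal hydroxypyruvate reductase of photorespiration, had signals of 3519.4 and 3029.9 in untreated wild type, 740.7 and 695.8 in treated wild type, and 1816.4 and 1565.5 in the treated mutant. It fell in the treated wild type (log2 -2.19 ± 0.15, limma SE, limma adjusted p = 9.92e-05). This SE uses the spread pooled over all 6 arrays, while that of ICL is from the 2 groups compared, so they are not alike. HPR was higher in the mutant than in the wild type on norflurazon by 1.23 (adjusted p = 0.00629). It was the only named gene of 9 listed for photorespiratory peroxisomes and catalases. Its groups do not overlap, and the treated mutant lay between the other groups. Over all tested probe sets 9.85% were called lower in the treated wild type than in the untreated. Between the genotypes on norflurazon 1.83% were called higher in the mutant, and the arrays of 59.2% overlapped. The antenna protein gene LHCB4.2, one of 2 named markers of green tissue out of 14 listed, went from 2423 ± 245 to 140.4 ± 84.9 (SD, n = 2) in the wild type and stood at 608.6 ± 162 (SD, n = 2) in the mutant. LHCB4.1, the other named marker, had the same order, with a log2 difference of -1.89 in the treated wild type (adjusted p = 0.000135) and 1.22 between the genotypes (adjusted p = 0.00507). For ICL the mutant arrays differed in this respect. On replicate 1 its signal lay between the untreated and the treated wild type arrays, and on replicate 2 it was the highest of all 6 arrays. LHCB4.2 did not pass between the genotypes when any 1 array other than those of the treated wild type was left out (adjusted p between 0.0803 and 0.144).

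Few other genes of fat mobilisation were named. The glyoxylate cycle list held 9 further genes, among them malate synthase, the peroxisomal citrate synthases and malate dehydrogenases, and the aconitases, and 0 of them were named here, so their signals were not analysed. Over the lists for the glyoxylate cycle, gluconeogenesis, fatty acid beta-oxidation, and oil bodies with lipolysis, 6 of 49 loci other than ICL were named and 3 passed the filter on low signals. Of these 3, 0 passed the limma threshold in any of the comparisons, and 0 had an unadjusted p under 0.05. Over all tested probe sets 18.9% passed in the wild type on norflurazon against untreated wild type, 2.95% between the genotypes and 18.8% in the treated mutant against untreated wild type.

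PPDK, pyruvate orthophosphate dikinase, which makes phosphoenolpyruvate from pyruvate, had signals of 335.1 and 320.3 in untreated wild type, 294.2 and 278.9 in treated wild type, and 250.2 and 286.9 in the treated mutant (log2 differences from untreated wild type of -0.19 and -0.29; adjusted p = 0.455 and 0.26). AIM1, a multifunctional protein of peroxisomal beta-oxidation, had 275.2 and 280.6 untreated, 397.3 and 261.1 in treated wild type, and 260.1 and 270.5 in the treated mutant (differences of 0.21 and -0.07; adjusted p = 0.535 and 0.857). SDP1, the lipase that starts the breakdown of stored triacylglycerol, had 98.1 and 115.3 untreated, 117.9 and 135.0 in treated wild type, and 128.5 and 152.3 in the treated mutant (differences of 0.25 and 0.40; adjusted p = 0.419 and 0.199). The largest of these log2 differences was 0.40, beside 3.66 and 4.04 for ICL. The 3 named genes below the filter were dim on every array: the lipase gene SDP1-LIKE lay between 7.6 and 18.6, and the oleosin genes OLEO3 and AT3G01570 lay between 14.1 and 28.7 and between 14.8 and 27.4.

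Enzymes that share isocitrate or succinate with ICL, or use its neighbours in central metabolism, differed by far smaller amounts. A list of 16 such loci, assembled after the annotation had been read, had 13 tested members. In the treated wild type 2 rose and 1 fell, where 9.06% of all tested probe sets rose and 9.85% fell. Between the genotypes 1 was higher in the mutant, against a background of 1.83% higher and 1.11% lower. In the treated mutant 3 were higher than in untreated wild type, where 8.55% of all were higher and 10.3% lower. The list median was 0.52 in the treated wild type and 0.54 in the treated mutant, beside medians of 0.06 and 0.01 over all tested probe sets. Isocitrate dehydrogenases also use isocitrate, in several parts of the cell. The gene of the mitochondrial IDH-V was at 0.52 and 0.58 in the treated wild type and mutant (limma adjusted p = 0.0787 and 0.0593). That of IDH-VI, also mitochondrial, was at 0.72 and 0.63 (adjusted p = 0.104 and 0.147). The cytosolic cICDH was at 0.36 and 0.34 (adjusted p = 0.0857 and 0.102) and the peroxisomal ICDH at 0.64 and 0.65 (adjusted p = 0.173 and 0.168). All 4 were higher by group means in both treated groups, and 0 of them passed.

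Succinate dehydrogenase, which uses the succinate that ICL releases, was represented by 3 tested genes. SDH2-1 had signals of 517.6 and 535.4 untreated, 742.9 and 1405.7 in treated wild type, and 1151.7 and 1611.7 in the treated mutant. Its difference of 1.37 ± 0.29 (limma SE) between treated mutant and untreated wild type passed (adjusted p = 0.0175), and that of 0.96 in the wild type did not (adjusted p = 0.058). SDH1-1 rose by 0.54 in the wild type (adjusted p = 0.0479) and was higher by 0.80 in the treated mutant (adjusted p = 0.0132). SDH2-2 was at 0.66 and 0.54 (adjusted p = 0.062 and 0.11). ACLA-3, a subunit of the ATP-citrate lyase that cleaves cytosolic citrate, rose from 226.8 ± 11.0 to 396.3 ± 29.7 (SD, n = 2; adjusted p = 0.014) in the wild type and stood at 424.3 ± 24.9 (SD, n = 2) in the mutant. The other 3 tested genes of that enzyme had differences between -0.46 and -0.02 and did not pass. AT5G58330, an NADP-dependent malate dehydrogenase, fell from 991.6 ± 38.7 to 506.6 ± 12.7 (SD, n = 2) in the wild type and was at 929.3 ± 39.9 (SD, n = 2) in the mutant, a difference of 0.87 between the genotypes (adjusted p = 0.021). Each of these calls rested on the spread pooled over 6 arrays. Leaving out untreated wild type replicate 1 ended the calls of SDH2-1, SDH1-1, ACLA-3 and AT5G58330, with adjusted p between 0.071 and 0.197, and leaving out untreated wild type replicate 2 did so with adjusted p between 0.051 and 0.318. Without mutant replicate 2 the calls that use the mutant had adjusted p between 0.0673 and 0.111. SDH1-1 in the treated wild type lost its call without any 1 of the 6 arrays (adjusted p between 0.0523 and 0.318).

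Of 23 listed genes of the tricarboxylic acid cycle, 13 were tested. In the treated wild type 2 rose (9.06% of all tested probe sets did), in the treated mutant 3 were higher than in untreated wild type (8.55% of all), and between the genotypes 0 passed (2.95% of all). Besides the succinate dehydrogenase genes, AT5G08300, a succinyl-CoA ligase gene, had signals of 264.9 and 220.0 untreated, 439.9 and 426.5 in treated wild type, and 438.8 and 368.7 in the treated mutant. It rose by 0.84 in the wild type (adjusted p = 0.0164), a call lost without untreated replicate 1 (adjusted p = 0.0896) or 2 (adjusted p = 0.173). PEX4, a ubiquitin-conjugating enzyme of peroxisome assembly and the only named gene of 22 listed for that process, was at 0.41 in the treated wild type (adjusted p = 0.164) and 0.18 in the treated mutant (adjusted p = 0.531).

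**Figure D3:**
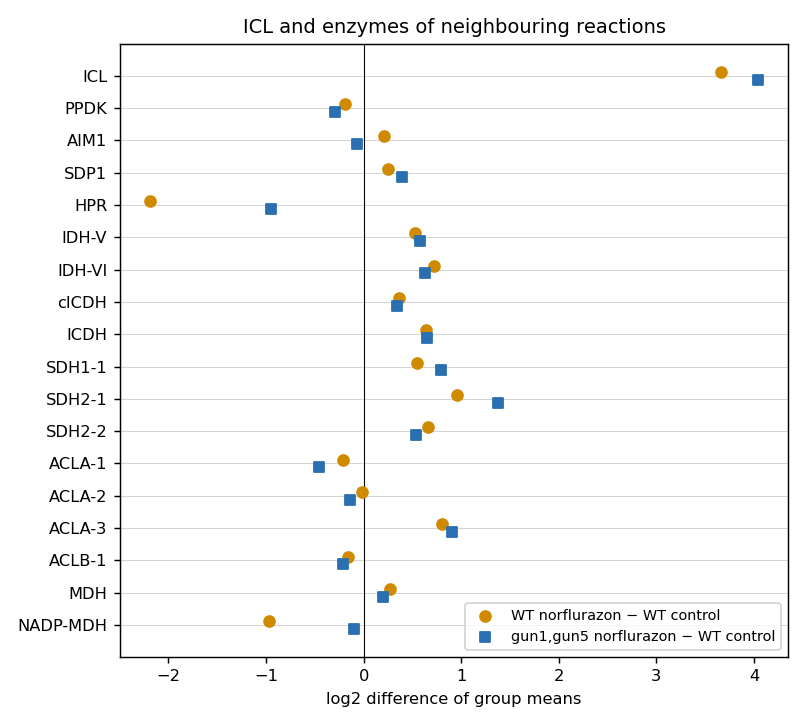
Log2 difference from untreated wild type of ICL and 17 tested genes of fat mobilisation, photorespiration and the use of isocitrate, succinate and citrate; orange circles are the treated wild type and blue squares the treated mutant, both against the same 2 untreated arrays. ICL lies at 3.66 and 4.04, and the other genes lie between -2.19 and 1.37.

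Genes of starvation and of seeds were looked at because ICL is known from both settings. Of 13 listed genes raised when carbon is short, 4 were named and tested. In the treated wild type 0 of them passed the limma threshold, which 18.9% of all tested probe sets did, and 1 had an unadjusted p under 0.05. That gene was MCCA, which takes part in leucine breakdown, at 0.52 (adjusted p = 0.0987). The genes of amino acid breakdown IVD, ETFQO and D2HGDH were at -0.10, 0.05 and 0.09. In the treated mutant 1 of the 4 passed as higher than in untreated wild type, as 8.55% of all tested probe sets did. It was MCCA, at 0.72 (adjusted p = 0.0357), while IVD, ETFQO and D2HGDH were at 0.46, 0.23 and 0.07 and did not pass. The MCCA call was lost under quantile scaling (adjusted p = 0.0546) and with no intensity trend (adjusted p = 0.053). PAP85, a gene of the vicilin type, was the only tested one of 10 listed genes of seed storage proteins, of which 2 were named. It was dim, with signals of 34.7 and 26.3 untreated, 45.5 and 54.0 in treated wild type, and 84.0 and 60.6 in the treated mutant. Untreated replicate 2 lay below the low-signal filter of 27.6. In the treated mutant it passed as higher than untreated wild type (1.24, adjusted p = 0.0165), as 8.55% of all tested probe sets did. AT1G03890, the other named storage protein gene, of the cruciferin type, was not tested and was lower in the treated mutant by group means. It had signals of 3.2 and 29.4 untreated, 6.4 and 14.9 in treated wild type, and 2.4 and 4 in the treated mutant. AT3G15670, the only named one of 11 listed genes of late embryo development, had 22.9 and 29.5 untreated and between 0.7 and 11.8 on the treated arrays. MCCA and PAP85 each lost their call when either untreated array or mutant replicate 1 was left out (adjusted p between 0.0697 and 0.277), and MCCA also without mutant replicate 2 (adjusted p = 0.183). Of 5 named genes of LEA proteins, made in drying seeds and tissues, 2 were tested and 0 passed, beside 18.9% and 18.8% of all tested probe sets against untreated wild type (AT2G44060 at -0.52 in the treated wild type, adjusted p = 0.0891). Of 10 listed root markers 2 were named, and 0 passed in any comparison. PYK10, a beta-glucosidase gene abundant in roots, had signals between 2821.2 and 3665.0 on the 6 arrays. EXPA7, a root hair expansin gene, had 46.7 and 56.1 untreated, 48.9 and 18.1 in treated wild type, and 51.4 and 49.5 in the treated mutant. Without treated wild type replicate 1 it was called lower in the treated wild type (adjusted p = 0.0091) and higher in the mutant than in the treated wild type (adjusted p = 0.0315).

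Mutant replicate 2, on which ICL was highest, differed from mutant replicate 1 in more than ICL. For ICL the ratio of replicate 2 to replicate 1 was 1.12 in untreated wild type, 0.823 in treated wild type and 3.49 in the mutant. Among all tested probe sets the log2 difference between the 2 arrays had a standard deviation of 0.271 in untreated wild type, 0.589 in treated wild type and 0.451 in the mutant. In the mutant 82 tested probe sets, or 0.601%, differed between the arrays by more than ICL did in either direction, and 31 were higher on replicate 2 by a larger ratio. In untreated and treated wild type 47.2% and 54.5% of tested probe sets differed by more than ICL. These shares describe ICL, whose arrays are shown singly because the treated replicates were known to differ.

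**Figure D4:**
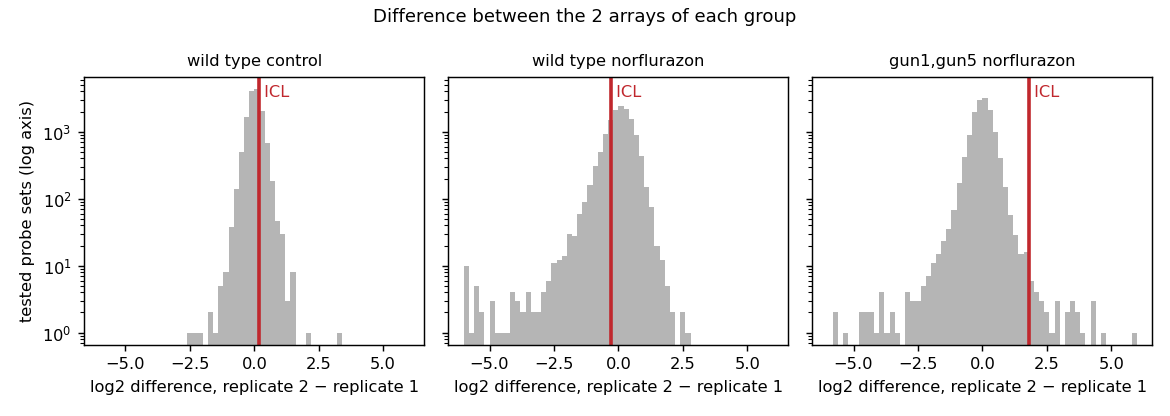
Histograms of the log2 difference between replicate 2 and replicate 1 for the 13648 tested probe sets in each group (count on a log axis; values beyond 6 in either direction are in the end bins), with ICL as a red line. ICL lies at 0.16 and -0.28 in the wild type groups, within the bulk, and at 1.80 in the mutant, in the upper tail.

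Of the 31 probe sets with a larger ratio, 17 named 1 gene. Of these, 10 are in a list of 35 genes known to be induced when plants lack oxygen. Some of the 17 passed the filter on mean log2 signal only through mutant replicate 2, so the counts rest partly on that array. They were CML38 and AT4G33560, which are in the list, and AT1G29020, which is not. AT4G33560, for example, had 380.1 on mutant replicate 2 and between 13.1 and 38.8 on the other arrays. The list was written after these values had been seen, so that its values are given with no test. Absence from it does not show that a gene is unrelated to low oxygen. The list had 16 named members, of which 12 passed the filter. All 16 had their highest signal on mutant replicate 2, the array where ICL was highest. The share of all probe sets with their highest signal there was not counted. Of the 16, 13 had a larger ratio of replicate 2 to replicate 1 than ICL. The median ratio of the 16 was 8.04 in the mutant, 0.760 in treated wild type and 1.01 in untreated wild type. Over all tested probe sets it was 1.01 in the mutant, but these all passed the filter, which only 12 of the 16 did. Their summed signal was 11318.2 on mutant replicate 2, 2132 on mutant replicate 1, 4418.8 and 3079.8 on treated wild type replicates 1 and 2, and 1577.3 and 1576.4 in untreated wild type.

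These genes did not all have 1 pattern. AT3G29970 had signals of 16.2 and 1004.2 on mutant replicates 1 and 2, and between 20.1 and 73.8 on the wild type arrays. CML38, a calmodulin-like calcium sensor gene, had 11.6 and 130.5 in the mutant and between 20 and 56.7 in the wild type. These genes were high on 1 array only. AT1G33055 had 73.1 and 73.2 in untreated wild type, 464.5 and 281.9 in treated wild type, and 163.1 and 1586.9 in the mutant. AT1G19530 had 156.8 and 180.3, then 1294.6 and 708.5, then 409 and 1469.8 in the same order. AT4G39675 had 155.6 and 110.3, then 747.4 and 481.6, then 307.4 and 1492.5. The last 3 had the order of arrays seen for ICL among the treated samples, with mutant replicate 2 highest, then treated wild type replicate 1, treated wild type replicate 2 and mutant replicate 1. PDC2, a pyruvate decarboxylase gene of fermentation, had the same order at smaller ratios, with 410.2 and 334.0 in treated wild type and 300.1 and 572.0 in the mutant. AT5G44730 and AT3G61930 were nearly level, with ratios of 1.09 and 1.34 in the mutant. The part of what sets mutant replicate 2 apart in the ICL signal was not tested. Without that array the treated mutant still stood at 3.14 over untreated wild type for ICL.

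Other marks of the arrays are given beside ICL. Of the 4 named heat shock genes, AT5G51440 and Fes1A passed as higher in both comparisons with untreated wild type, where 9.06% and 8.55% of all tested probe sets did. Without untreated replicate 1 or 2 these calls were lost (adjusted p between 0.0629 and 0.141), and those in the mutant also without mutant replicate 1 (adjusted p = 0.115 and 0.0978). The 4 genes had a summed signal of 6368.3 and 727.6 on treated wild type replicates 1 and 2 and of 5045.7 and 1039.8 on mutant replicates 1 and 2, against 222.7 and 261.2 in untreated wild type. These genes were therefore highest on the treated arrays numbered 1, while ICL was highest on a treated array numbered 2. Signals of the array's 25S ribosomal RNA control were 2511.1 and 8.2 on the treated wild type arrays, where ICL had 2030.3 and 1670.5, and 115.6 and 21 on the mutant arrays. For actin, the 3′ over 5′ ratio, a sign of RNA quality, was 1.65 and 3.63 on the treated wild type arrays, 2.00 and 3.21 on the mutant arrays, and 2.46 and 2.78 on the untreated ones. It was higher on both treated arrays numbered 2. The same ratio for GAPDH was 1.00 and 0.952 on the untreated arrays, 1.02 and 1.17 on the treated wild type arrays, and 1.13 and 1.21 on the mutant arrays. With these GAPDH probe sets all 4 treated arrays lay above both untreated ones and mutant replicate 2 was highest, as for ICL. Other pairs of probe sets repeated these orders in part. In another GAPDH pair the 3′ signal exceeded the 5′ signal in both untreated samples (860.6 against 488.5, 780.4 against 332). In treated wild type replicate 1 it did not (1075 against 1110), and in replicate 2 it did (1217.4 against 479.1). It also did on mutant replicates 1 (1071.2 against 712.9) and 2 (1082.3 against 470.8). In both genotypes the ratio of this pair was higher on the treated array numbered 2, as for the first actin pair. Another actin pair had lower 5′ signals with treatment (112.8 to 125.7) than without (174.5 and 192.7). Its 3′ signals were 876.1 to 1026.9 treated, and 840.3 and 895.3 untreated. The 3′ over 5′ ratio of this pair was thus higher on all 4 treated arrays than on both untreated ones, as with the first GAPDH pair. The part of RNA quality in the ICL signal was not tested.

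**Figure D5:**
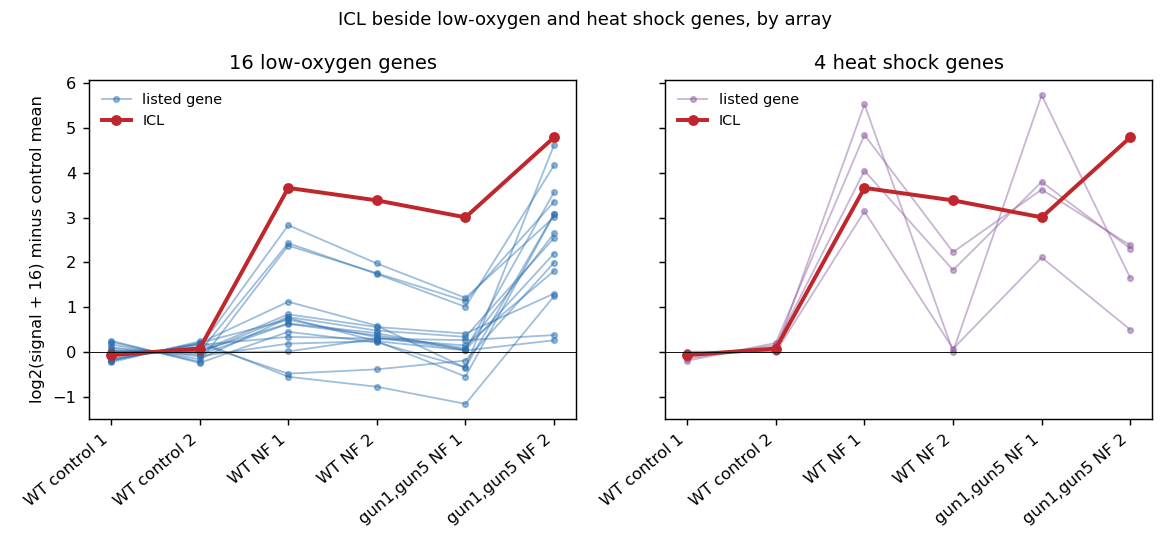
Level on each array of ICL (red) beside 16 low-oxygen genes (left) and 4 heat shock genes (right), as log2(signal + 16) minus the mean of the 2 untreated arrays; lines join the arrays of 1 gene and imply no order in time. The low-oxygen genes and ICL are highest on gun1,gun5 replicate 2, while the heat shock genes are highest on treated arrays numbered 1.

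The genes whose signals were most like those of ICL over the 6 arrays were found in 2 ways among the 7284 other tested probe sets that name 1 gene. By Pearson correlation of log2 signals the 6 highest were AT5G42470 (r = 0.998), AT4G17245 (0.997), AT3G16310 (0.995), the RNA-binding protein gene RBP45B (0.991), AT5G46840 (0.991) and AT5G44250 (0.990). These are descriptions over 6 arrays in 3 groups, and 147 probe sets had r at or above 0.95, since the groups themselves differ. Their differences in the treated wild type were small, from 0.13 to 0.93 on the log2 scale. AT5G42470, for example, had signals of 112 and 115.4 untreated, 144.5 and 140.4 in treated wild type, and 139 and 156.8 in the mutant, the same order of all 6 arrays as ICL at a fraction of its range.

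By the distance between log2 profiles, each centred on the gene's own mean over the 6 arrays, which also counts the size of the change, the 6 nearest were AT4G15690 at a root mean square distance of 0.68, AT2G04050 at 0.72, AT1G33055 at 0.76, AT1G19530 at 0.78, AT4G39675 at 0.79 and CCS, the copper chaperone of superoxide dismutase, at 0.79. The profile of ICL itself had a root mean square of 1.90. AT4G15690, a glutaredoxin family gene, had signals of 11.7 and 7.2 untreated, 70.8 and 34.4 in treated wild type, and 47.2 and 102.3 in the mutant, again highest on mutant replicate 2. Its untreated signals and those of AT2G04050 (18 and 22.4) were below the filter signal of 27.6. These 2 genes passed the filter through their treated arrays, and their distances rest partly on dim signals. Of the 6, 3 were the low-oxygen genes AT1G33055, AT1G19530 and AT4G39675. CCS and AT2G04050 had nearly level mutant arrays, with 444.6 and 466.8 for CCS and 343.2 and 299.7 for AT2G04050. Without mutant replicate 2, 0 of the 6 genes by correlation and 1 of the 6 by distance were still among the nearest 6, and with no filter on low signals 1 of the 6 by distance was.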

How the data were processed

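The deposited values are array intensity signals on a linear scale, 1 array per sample, and the submitters' processing notes name MAS5, with no version. The mean of each array between the 2nd and 98th percentile lay between 99.6 and 99.9, and no detection calls were used. Control probe sets (64) were left out. Signals were transformed to log2(signal + 0.05), and 13648 probe sets with a mean log2 signal at or above the 40th percentile, a signal of 27.6, were tested. A mean was fitted for each of the 3 groups with limma 3.58.1 in R 4.3.3 (eBayes with an intensity trend; 3 residual and 4.89 prior degrees of freedom), with Benjamini-Hochberg adjustment over all 13648 and a threshold of 0.05. All tests are two-sided. The fit was tested on simulated data. Precision is limited by having 2 arrays in each group.

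Gene names come from the annotation of the array platform, matched to loci through RefSeq's gene table (assembly TAIR10.1). A locus with several probe sets was represented by the one with the highest mean signal. ICL and the gene lists were chosen with earlier results of these data known; the list of 16 enzymes was written after the annotation was read and the low-oxygen list after values were seen. Named genes were ICL, tested members of its pathway, from each other list and comparison up to 2 members that passed with the biggest differences, or else that of smallest p, and the 6 genes most like ICL by each of 2 measures. Alternatives were 2 scalings, a pseudocount of 16, a filter at the 60th percentile or none, no intensity trend, a replicate block, and leaving out each array.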

Additional observations from a re-analysis of the deposited data

How the results depend on the processing

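ICL kept its direction against untreated wild type under the alternatives run: the log2 difference of the treated wild type lay between 3.52 and 3.80 with 1 array left out, and was 3.71 and 3.80 under median centring and quantile scaling and 3.53 with a pseudocount of 16. For the treated mutant it lay between 3.14 and 4.94 with 1 array left out. Between the genotypes it was 0.22 under quantile scaling and 0.44 under median centring, and ran from -0.52 to 1.28 with 1 array left out, reversing without mutant replicate 2. With the replicate block the 3 ICL differences were 3.66, 0.38 and 4.04. Replicate numbers share only a number in the labels; the replicate 1 minus replicate 2 differences correlated at 0.451 over probe sets between the treated groups, and at 0.0713 and 0.0799 with the untreated group. With the block 3195, 591 and 3190 probe sets passed in the 3 comparisons, against 2581, 402 and 2571 without it, and MCCA (adjusted p = 0.0485) and AT2G44060 (adjusted p = 0.0478) passed in the treated wild type.

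The count of fat mobilisation genes that passed was 0 under every alternative run. The counts of changed probe sets depended on the arrays. With 1 array left out they ran from 603 to 3110 for the treated against the untreated wild type (2581 with all arrays), from 81 to 775 between the genotypes (402), and from 388 to 4000 for the treated mutant against untreated wild type (2571); between the genotypes the count was 235 with no filter. A left-out array leaves its group with 1, which is assumed to vary like the others. Of 47 differences of named genes, 22 changed their call under at least 1 alternative. Of those that passed 0 changed sign, and 6 that did not pass changed sign under at least 1 alternative, among them AIM1 in all 3 comparisons and AT5G51440 between the genotypes (0.81 without treated wild type replicate 1, beside -0.54). HPR kept its calls in the treated wild type and between the genotypes without each array in turn, and lost that between treated mutant and untreated wild type without untreated replicate 1 (adjusted p = 0.0816). Dim probe sets, such as those of the oleosin genes, limit what can be read of them.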

Other observations

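Besides the genes of the low-oxygen list, 7 named genes had a larger ratio of mutant replicate 2 to replicate 1 than ICL. Their absence from that list does not show that they are unrelated to low oxygen. AT3G03270, a universal stress protein gene, had signals of 364 and 2594.8 on the mutant arrays and between 210.7 and 1028.9 on the wild type arrays. AT2G17850 had 36.1 and 990.8 in the mutant and between 38 and 84 elsewhere. GH3.3, an enzyme gene that conjugates auxin to amino acids, had 53 and 299.7 in the mutant, 164.1 and 68.2 in treated wild type, and 25.7 and 32.1 untreated. The other 4, AT1G73120, AT1G29020, AT3G05190 and AT2G15830, had signals between 11.9 and 12.4 on mutant replicate 1 and between 47.7 and 62.3 on mutant replicate 2. On mutant replicate 1 all 4 were below the filter signal of 27.6. AT1G73120 had 313.3 and 437.1 untreated, and the others had between 37.5 and 75.6. In treated wild type the 4 had between 20.5 and 107.3. These genes were chosen after their values were seen. Along the chromosome the nearest named neighbours of ICL in the gene table, within 4 genes on either side, were AT3G21690, SGP2 and UGT71B1. In the treated wild type their log2 differences were 0.61 (limma adjusted p = 0.0383), -0.40 (adjusted p = 0.383) and 0.15 (adjusted p = 0.726).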
